A study of Mus musculus with 16 samples.

Results

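Skin that had lost Mcpip1 in both keratinocytes and myeloid cells was compared with skin that had kept it. Both groups held 4 mice, so the comparison uses 8 of the 16 libraries of the study, chosen by the genotype in the labels. EMdKO mice carried 2 floxed alleles of Zc3h12a, Zc3h12a(loxP/loxP), the gene of MCPIP1, and 1 copy each of LysMCre(Tg/Wt) and Krt14Cre(Tg/Wt). Control mice carried the same floxed alleles and no Cre, so a change that a Cre transgene brings by itself cannot be told apart here from one that the deletion brings. The other 8 libraries came from EKO mice (Krt14Cre alone) and MKO mice (LysMCre alone), 4 of each, also with floxed Zc3h12a. All mice were 12 weeks old, each library came from the whole skin of a separate mouse, and the labels used here give neither sex nor body site. Krt14-Cre acts in basal keratinocytes and in the follicle and gland cells that derive from Krt14-positive cells, and LysM-Cre, which sits in the Lyz2 gene, acts in macrophages, neutrophils and part of the other myeloid cells. Neither driver is made for T cells, fibroblasts, vessels or fat, so EMdKO skin is not a skin without the gene.

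The protein MCPIP1 (Regnase-1) degrades mRNAs of inflammatory proteins by cutting them at stem-loops. Its known targets include mRNAs of cytokines, of NF-kB regulators and its own mRNA. In skin, keratinocytes release IL-1 and IL-36 family cytokines and antimicrobial peptides as alarm signals, while macrophages take up debris through scavenger receptors and are restrained by inhibitory receptors such as Siglecs.

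The promoters of 3 genes that rose in EMdKO skin, Marco, Siglece and Gbp2b, and of Il1f8, an IL-36 gene with a large fold difference, are shown so that their letters can be compared. They come from RefSeq on GRCm38.p6, run from 250 bases before to 50 bases after the start of the gene, and read 5′ to 3′ on its strand. Capitals mark matches to 6 motifs searched on both strands: the interferon-stimulated response element (GAAA, any pair of bases, GAAA), the STAT element TTCNNNGAA, the AP-1 element TGANTCA, the PU.1 element GAGGAAGT, the TATA box TATAAA and the NF-kB element. The windows are chr1:120504975-120505274 (minus strand) for Marco, chr7:43660112-43660411 (minus strand) for Siglece, chr3:142594597-142594896 (plus strand) for Gbp2b and chr2:24152922-24153221 (plus strand) for Il1f8.
Marco: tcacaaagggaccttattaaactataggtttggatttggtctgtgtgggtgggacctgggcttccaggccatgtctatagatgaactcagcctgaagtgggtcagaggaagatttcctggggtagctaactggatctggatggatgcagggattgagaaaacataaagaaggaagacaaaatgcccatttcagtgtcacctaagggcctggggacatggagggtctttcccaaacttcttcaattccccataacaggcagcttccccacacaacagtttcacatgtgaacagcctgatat
Siglece: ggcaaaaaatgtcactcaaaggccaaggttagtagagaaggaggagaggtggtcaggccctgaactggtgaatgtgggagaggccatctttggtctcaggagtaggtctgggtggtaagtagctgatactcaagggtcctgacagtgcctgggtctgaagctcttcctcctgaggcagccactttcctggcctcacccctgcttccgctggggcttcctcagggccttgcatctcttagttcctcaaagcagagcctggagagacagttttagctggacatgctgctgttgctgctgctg
Gbp2b: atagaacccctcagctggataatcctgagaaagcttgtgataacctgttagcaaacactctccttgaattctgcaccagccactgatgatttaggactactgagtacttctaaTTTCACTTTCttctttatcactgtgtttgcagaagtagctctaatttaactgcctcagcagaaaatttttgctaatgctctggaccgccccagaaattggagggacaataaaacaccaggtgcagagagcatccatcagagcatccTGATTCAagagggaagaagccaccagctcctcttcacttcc
Il1f8: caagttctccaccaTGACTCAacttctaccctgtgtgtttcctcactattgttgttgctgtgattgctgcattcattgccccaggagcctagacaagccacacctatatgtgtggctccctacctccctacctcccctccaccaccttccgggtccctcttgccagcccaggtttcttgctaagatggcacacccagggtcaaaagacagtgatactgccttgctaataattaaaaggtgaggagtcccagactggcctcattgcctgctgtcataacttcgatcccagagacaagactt
The Marco and Siglece windows held none of the 6 motifs in these letters. Gbp2b had the interferon element on its minus strand, TTTCACTTTC, 137 bases before the start, and an AP-1 match from base 10 after it, which reads the same on both strands. The Il1f8 window had an AP-1 match 236 bases before the start. Il1f9, whose window is not printed, had a STAT element 128 bases before its start. Among the 10613 promoters of tested genes, 3% held the interferon element, 5.64% the AP-1 element, 6.93% the STAT element, 3% the PU.1 element, 8.33% the TATA box and 5.22% the NF-kB element. A window without a match says only that these letters are not in it. Il1f6 was not matched to a promoter.

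Depth was 7182864 to 10392629 counts in Control and 8198367 to 12086327 in EMdKO, and 13633 genes had enough counts to be tested. Levels are given in CPM, counts relative to each library's TMM-scaled total. They compare mice for a gene, not genes with each other, because each target has its own amplicon. Each log2 fold change is EMdKO minus Control with an SE derived from the test. An edgeR adjusted p comes from its quasi-likelihood test with Benjamini-Hochberg adjustment over all tested genes, and one under 0.05 passed. Whole-skin markers were present in both groups: Krt5 lay between 2251 and 4799 CPM and Col3a1 between 2024 and 5177 CPM in the 8 mice. Of the defining immune markers, Ly6g of neutrophils was at 0 in all 8 libraries and C1qa of macrophages reached at most 0.0829 CPM, so neither amplicon informs on its cells, while Csf1r and Mrc1 were measured well. In bulk skin, fewer cells of a type and less RNA per cell cannot be told apart. EKO mouse 1 stood apart from the other EKO mice, with Il1f6 at 0.516 CPM where they had 92.4, 79.5 and 79.3 CPM. Its Zc3h12a level of 11.7 CPM lay between theirs, at 7.07 to 8.41 CPM, and the Control range, and whether its genotype is as labelled was not tested. It is in neither group of the comparison of EMdKO with Control. It acts there through the spread that the 4 groups share in the model, the TMM scaling and the choice of tested genes. Without this mouse 13756 genes were tested. It enters comparisons with EKO directly.

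Zc3h12a, the targeted gene, had 19.4, 21.7, 30.3 and 27.4 CPM in Control skin and 5.47, 5.69, 5.71 and 4.41 CPM in EMdKO skin. Every EMdKO mouse was far below every Control mouse. Its log2 fold change of -2.21 ± 0.24 passed (edgeR adjusted p = 0.000448). An exact two-sided permutation test gave p = 0.0286, the smallest that 4 against 4 mice allow. EMdKO was also 2.32 ± 0.24 log2 units below MKO (edgeR adjusted p = 0.000497), and its difference from EKO, -0.70 ± 0.23, did not pass (edgeR adjusted p = 0.672). The labels do not say which exons were floxed or where the amplicon lies, so the remaining signal is transcript of the amplicon region and not necessarily of intact mRNA.

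The genes whose promoters drive Cre were checked next. Lyz2, the lysozyme gene that carries LysM-Cre, had 344, 324, 548 and 363 CPM in Control and 188, 295, 248 and 191 CPM in EMdKO, without overlap (exact two-sided permutation p = 0.0286). In the model over all genes its log2 fold change of -0.78 ± 0.30 missed the threshold (edgeR adjusted p = 0.5). Its near-identical copy Lyz1, which can share reads with it and was named after its values were seen, lay the other way, with 40.6, 43.6, 40.9 and 43.7 CPM in Control and 114, 81.7, 158 and 72.3 CPM in EMdKO. Krt14, the basal keratin whose promoter drives the other Cre, had 1011 to 1234 CPM in Control and 1218 to 2026 in EMdKO, and these ranges overlapped (exact two-sided permutation p = 0.0571).

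Besides Zc3h12a, 3 genes passed the test, all higher in EMdKO: 2 receptors of myeloid cells and 1 interferon-induced GTPase. The 4 called genes were 0.0293% of those tested, with 0.022% higher and 0.00734% lower. Marco, a scavenger receptor of macrophages for bacteria and particles, had 0.248, 0.288, 0.0934 and 0.125 CPM in Control, from 1 or 2 counts per library. The EMdKO mice had 9.94, 8, 8.37 and 3.88 CPM. The gene was thus close to undetected in every Control mouse and measured in every EMdKO mouse. Its log2 fold change of 5.29 ± 0.52 passed (edgeR adjusted p = 0.000253), and the summed counts, 311 against 6, gave a ratio of 43.3 with a 95% counting interval of 19.7 to 119.

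Siglece, an inhibitory receptor of myeloid cells that binds sialic acids, had 1.49, 2.16, 2.06 and 1.87 CPM in Control and 8.29, 8.72, 11.0 and 5.36 CPM in EMdKO. The lowest EMdKO mouse was above the highest Control mouse, and the rise of 2.13 ± 0.31 log2 units passed (edgeR adjusted p = 0.0146). Gbp2b, a guanylate-binding protein gene induced by interferons, had 0.124, 0.288, 0.374 and 0.375 CPM in Control, at most 4 counts per library, and 3.98, 4.85, 2.85 and 1.16 CPM in EMdKO. The EMdKO mice were above all Control mice. The rise of 3.38 ± 0.54 log2 units passed (edgeR adjusted p = 0.0351), and its summed counts of 129 against 10 gave a ratio of 10.8 with a 95% counting interval of 5.68 to 23. Marco and Zc3h12a passed in all 16 fits that left out 1 library. Siglece missed the threshold without Control mouse 1, 2, 3 or 4 or EMdKO mouse 1, 2 or 3, with edgeR adjusted p up to 0.085. Gbp2b missed it without any 1 of the Control mice, without EMdKO mouse 1, 2 or 3, without EKO mouse 2 or 3 and without MKO mouse 2 or 3, with edgeR adjusted p up to 0.188, and in the fit of EMdKO and Control alone (edgeR adjusted p = 0.0727).

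**Figure D1:**
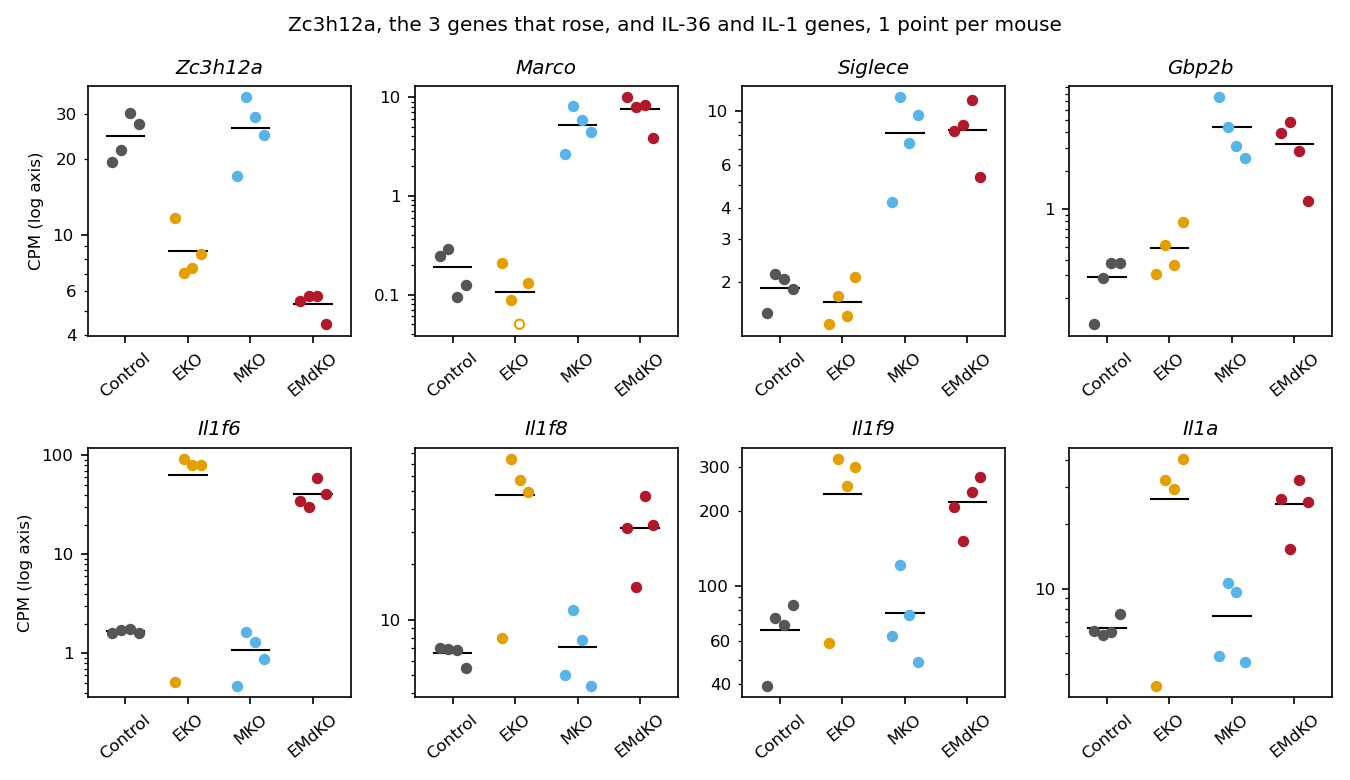
CPM on a log axis of the 4 called genes and 4 IL-1 or IL-36 genes, with 1 point per mouse and a bar at the group mean. The open point of Marco stands for an EKO mouse with no count, drawn at 0.05 CPM. The EMdKO mice lie apart from the Control mice in all 8 panels, with the MKO mice in Marco, Siglece and Gbp2b, and with EKO mice 2, 3 and 4 in the IL-1 and IL-36 genes.

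The model found few genes past the threshold, while many more separated the mice completely. In 501 genes, 3.67% of those tested, no EMdKO mouse overlapped a Control mouse, 304 with EMdKO higher (2.23%) and 197 with EMdKO lower (1.45%). At an unadjusted p under 0.05 there were 1112 genes, 478 higher and 634 lower, where 682 would be expected without any difference. The median log2 fold change of all tested genes was -0.0182. The fit of the 8 EMdKO and Control libraries alone called 10 genes (0.0753%), 9 of them higher. The fit of 15 libraries without EKO mouse 1 called 40 (0.291%), 36 higher and 4 lower. DESeq2 called 73 (0.536%) and limma-voom 8 (0.0587%). In all 40 genes called without EKO mouse 1 the mice of EMdKO and Control did not overlap. The separation and the calls come from the same libraries, so it is no separate support for them.

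**Figure D2:**
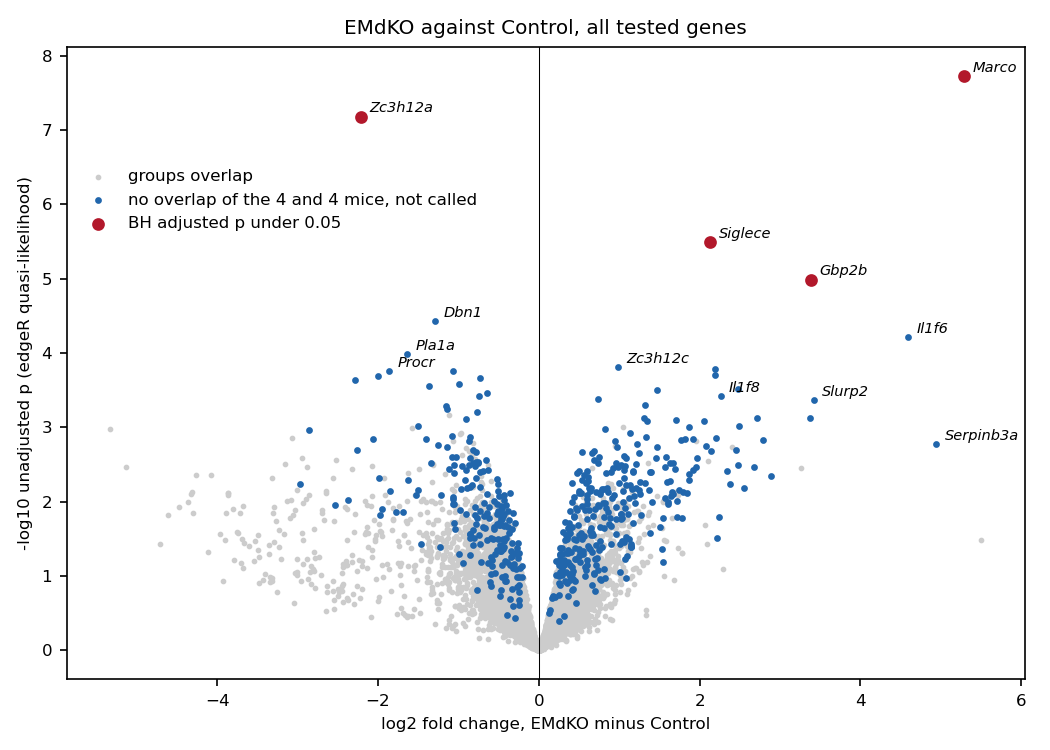
Log2 fold change of EMdKO minus Control on the x axis against -log10 of the unadjusted p on the y axis, with 1 point for each of 13633 tested genes. Red points are the 4 called genes, blue points the uncalled genes whose mice do not overlap, and gray points the rest. Zc3h12a is the called gene on the left, and Il1f6, at 4.60, lies far to the right below the called genes.

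All 3 IL-36 agonist genes and the IL-1α gene were higher in every EMdKO mouse than in any Control mouse, although none passed in the edgeR model of all 16 libraries. Il1f6, which encodes IL-36α, had 1.61, 1.73, 1.77 and 1.62 CPM in Control and 34.9, 30.4, 58.5 and 40.7 CPM in EMdKO. No EMdKO mouse came near a Control mouse, and the log2 fold change was 4.60 ± 0.86 (edgeR adjusted p = 0.14). It passed with EMdKO and Control alone (edgeR adjusted p = 8.67e-05) and without EKO mouse 1 (edgeR adjusted p = 4.07e-07). That mouse was singled out above by its Il1f6 level, so the fit without it is no independent support for this gene. DESeq2, with all 16 libraries, called Il1f6, Il1f8, Il1f9 and Il1a (DESeq2 adjusted p = 0.000174, 0.00251, 0.0108 and 0.021). None of these genes was called with limma-voom (limma-voom adjusted p = 0.409 for Il1f6), the hair score, the muscle score or the replicate block. Il1f8, which encodes IL-36β, had 7.06, 6.90, 6.82 and 5.50 CPM against 31.5, 15.1, 46.9 and 32.7 CPM, a log2 fold change of 2.26 ± 0.51. Il1f9, which encodes IL-36γ, had 39.5, 73.8, 69.1 and 83.6 CPM against 207, 152, 238 and 274 CPM, a log2 fold change of 1.71 ± 0.42. Il1a, which encodes IL-1α, had 6.32, 6.04, 6.26 and 7.62 CPM against 26.3, 15.4, 32.4 and 25.4 CPM, a log2 fold change of 1.92 ± 0.50. In each of these genes every EMdKO mouse was above every Control mouse.

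Without EKO mouse 1, Il1f8 and Il1a both had an edgeR adjusted p of 0.00853 and Il1f9 one of 0.0141. With EMdKO and Control alone the edgeR adjusted p was 0.036 for Il1f8, 0.033 for Il1a and 0.0685 for Il1f9. The other members of the family differed less. Il1f5, the antagonist of the IL-36 receptor, had a log2 fold change of 0.55 ± 0.39, and Il1rn, the antagonist of the IL-1 receptor, one of 0.44 ± 0.34. The inflammasome substrate gene Il18 had 0.60 ± 0.32, and the alarmin gene Il33 -0.07 ± 0.34. Il1b stood at 5.50 ± 2.15 CPM in EMdKO and 11.4 ± 16.1 CPM in Control (SD, n = 4), a log2 fold change of -1.04 ± 0.89. The receptor genes Il1rl2, for IL-36, and Il1r1, for IL-1, had 0.03 ± 0.16 and -0.41 ± 0.16, and none of these values passed. All 18 listed genes of the family were tested, 9 had values above 0, and 4 were higher without overlap, against 2.23% of all tested genes. The list median was -0.02, and it was 0.27 without Control mouse 2. Of the listed genes of the IL-6, IL-12, IL-17 and IL-20 families 12 of 26 had enough counts. Their median was 0.14, and it was 0.01 without Control mouse 1 and 0.36 without Control mouse 4. Ebi3, a subunit of IL-27 and IL-35, was the member higher without overlap, against 2.23% of all tested genes. It had 4.87 ± 2.37 CPM in Control and 12.1 ± 2.44 CPM in EMdKO (SD, n = 4).

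Of 21 cornified envelope genes tested 3 were higher without overlap, against 2.23% of all tested genes, and the groups overlapped in the other members. Slurp2, a secreted Ly6-type protein of keratinocytes, had 19.4, 11.7, 14.9 and 12.5 CPM in Control and 204, 39, 283 and 100.5 CPM in EMdKO. The spread among the EMdKO mice was wide and mouse 2 was the lowest, yet it lay above all Control mice (log2 fold change 3.42 ± 0.78; edgeR adjusted p = 0.245, and 0.0137 without EKO mouse 1). Lce1g, a late cornified envelope gene, had 15.8, 5.18, 5.98 and 12.1 CPM against 73.9, 17.7, 124 and 54.9 CPM (log2 fold change 2.79 ± 0.73). Lce1e had 44.6 ± 19.5 CPM in Control and 197 ± 109 CPM in EMdKO, and Hrnr, which encodes hornerin, 148 ± 36.6 and 371 ± 80.1 CPM (SD, n = 4). Those 3 passed without EKO mouse 1, with edgeR adjusted p of 0.0434 for Lce1g, 0.0465 for Lce1e and 0.0137 for Hrnr. As for Il1f6, that fit is no independent support for them. The Lce1 genes are near-identical copies, so reads may be split between them. The mature envelope genes Lor, with 0.42 ± 0.37, Ivl, with 0.12 ± 0.39, Flg2, with 0.04 ± 0.34, and Tgm1, with 0.01 ± 0.31, had smaller log2 fold changes. In these the groups overlapped. Of 47 envelope genes listed 21 were tested, 18 had values above 0, and the median log2 fold change was 0.42, which was 0.22 without EMdKO mouse 3 and 0.64 without Control mouse 4. Members with values below 0 were Sprr1b, at -2.79 ± 1.30, Tgm3, at -1.75 ± 0.89, and Sprr2f, at -0.38 (log2), all with overlap.

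The stefins and serpins, inhibitors of proteases, had a list median of 0.69, with 9 of 17 members tested. In 5 of these, against 2.23% of all tested genes, the EMdKO mice lay above all Control mice: Stfa3, Serpinb3a, Serpinb3b, Serpinb12 and Cst6. Stfa1, at -0.94 (log2), was the member below 0. Serpinb3a had 0.124, 0.144, 0.28 and 0 CPM in Control, at most 3 counts per library, and 4.23, 1.21, 10.6 and 3.57 CPM in EMdKO. The summed counts, 206 against 5, gave a ratio of 34.4 with a 95% counting interval of 14.5 to 107. Serpinb12 had 10, 7.34, 22.4 and 16.9 CPM in Control and 39.6, 39.1, 82.3 and 46.9 CPM in EMdKO, with a log2 fold change of 1.87 ± 0.56. Both passed without EKO mouse 1, as did Serpinb3b (edgeR adjusted p 0.0137, 0.0264 and 0.0223). Stfa3 had 28.7 ± 19.5 CPM in Control and 135 ± 61.1 CPM in EMdKO (SD, n = 4) and did not pass in either fit. Its copies among the stefins and the pair Serpinb3a and Serpinb3b may exchange reads. The list median was 1.72 without Control mouse 1.

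Among antimicrobial peptides, Defb14, a β-defensin gene, had 1.24, 4.46, 1.5 and 1.25 CPM in Control and 17.7, 6.91, 7.99 and 13.6 CPM in EMdKO. Its groups did not overlap (log2 fold change 2.48 ± 0.72; edgeR adjusted p = 0.358, and 0.0397 without EKO mouse 1). Defb6 had 5.83 ± 0.925 and 19.5 ± 6.05 CPM and Chil1 6.10 ± 4.95 and 38.6 ± 22.6 CPM in Control and EMdKO (SD, n = 4), both without overlap. Lcn2, whose mRNA has also been reported as an MCPIP1 target, reached 15.3 to 76.3 CPM in EMdKO and 1.75 to 28.5 CPM in Control, with overlap. The list had 16 of 21 members tested, 12 above 0 and 4 below, with a median of 0.40 that was 0.25 without Control mouse 1. The 3 members without overlap compare with 2.23% of all tested genes. Lowest were S100a7a, at -2.23 ± 1.11, Slpi, at -1.24 ± 0.99, and S100a8, at -0.92 ± 1.22 (log2), none of which passed. Of the kallikreins, serine proteases that cut desmosomes in the outer epidermis, 13 of 15 were tested with a median of 0.29, which was 0.12 without EMdKO mouse 3 and 0.45 without EMdKO mouse 2. Klk12 was the member higher without overlap, against 2.23% of all tested genes, with 1.67 ± 0.266 CPM in Control and 5.30 ± 1.13 CPM in EMdKO (SD, n = 4).

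The lists of barrier lipid genes and of sebaceous gland genes had values above 0 in 21 of 23 and 18 of 20 genes tested, against 47.1% of all genes. Lipk, a lipase of the granular layer, had 39.3, 22.9, 28.2 and 37.4 CPM in Control and 98.8, 75.2, 113 and 91.9 CPM in EMdKO. The groups were well apart and tight, and the log2 fold change of 1.57 ± 0.46 passed with EMdKO and Control alone and without EKO mouse 1 (edgeR adjusted p 0.0351 and 0.00853) but not with all libraries (edgeR adjusted p = 0.358). Elovl4, which makes very long chain fatty acids for ceramides, had 635 ± 139 CPM in Control and 1295 ± 362 CPM in EMdKO, and Degs2, which makes phytoceramides, 5.71 ± 2.11 and 19.8 ± 9.34 CPM (SD, n = 4). All 23 listed barrier lipid genes were tested, with a median of 0.34 (0.54 without Control mouse 4) and 4 higher without overlap, against 2.23% of all tested genes. All 20 sebaceous genes were tested as well, with a median of 0.64 and 7 higher without overlap, against the same 2.23%. Defb6, given above with the antimicrobial peptides, is also in this list and among those 7. Fa2h, the fatty acid 2-hydroxylase, had 112, 346, 223 and 219 CPM in Control and 572, 421, 1387 and 349 CPM in EMdKO, so the groups only just separated. Elovl5, an elongase, had 219 ± 51.2 and 436 ± 113 CPM, and Awat1, a wax synthase, 8.77 ± 4.90 and 26.9 ± 6.63 CPM in Control and EMdKO (SD, n = 4). Scd1 and Pparg, also sebaceous, had log2 fold changes of 0.49 ± 0.46 and 0.08 ± 0.36. Aadacl3, Abcc3 and Vnn3 are the 3 genes called with EMdKO and Control alone that are in no list, and the latter pair was named after the values were seen. Aadacl3 had 8.36 ± 1.46 and 38.3 ± 17.1 CPM, Abcc3, a transporter gene, 4.89 ± 0.651 and 14.7 ± 1.80 CPM, and Vnn3, a pantetheinase gene, 0.611 ± 0.106 and 3.52 ± 0.946 CPM in Control and EMdKO (SD, n = 4).

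**Figure D3:**
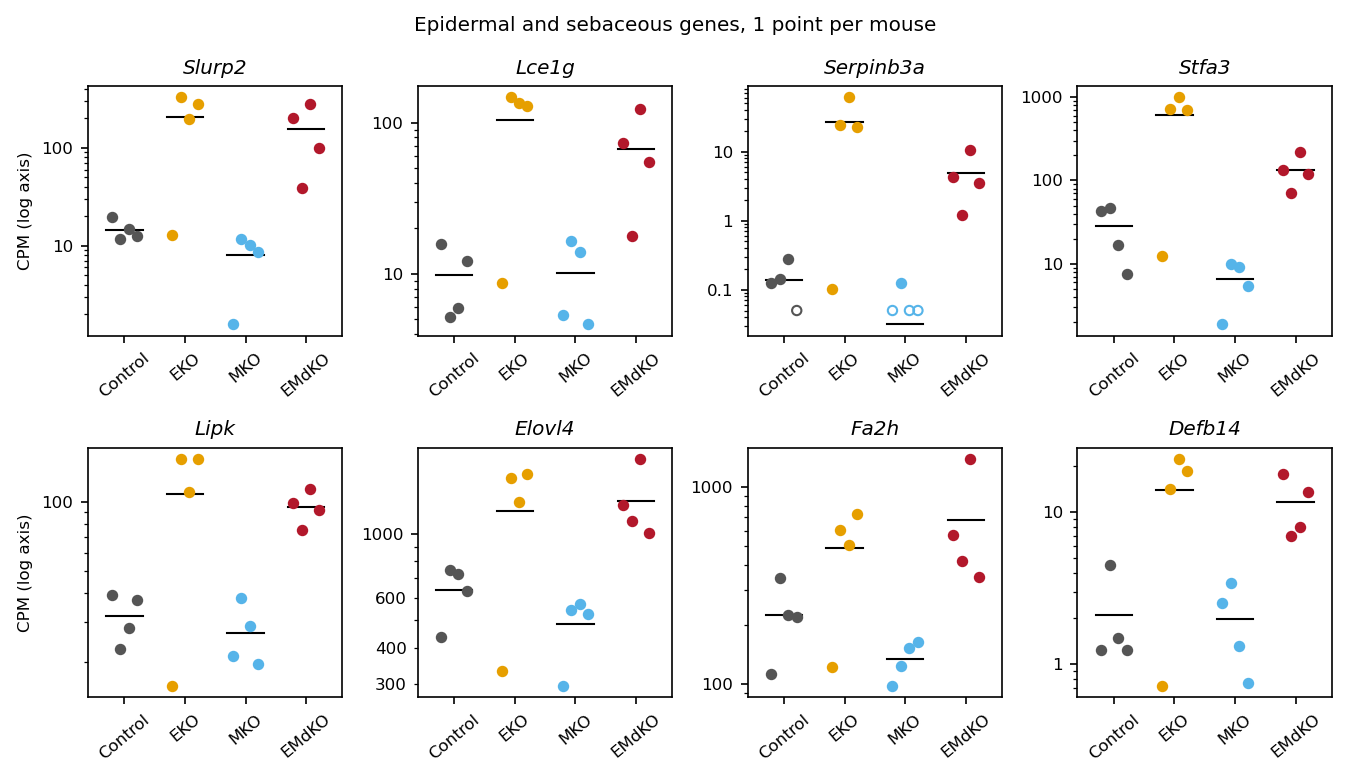
CPM on a log axis of 8 epidermal, antimicrobial and lipid genes, with 1 point per mouse and a bar at the group mean. Open points of Serpinb3a are mice with no count, drawn at 0.05 CPM. In every panel the 4 EMdKO mice and EKO mice 2, 3 and 4 lie above the 4 Control mice, while EKO mouse 1 does not lie above the highest Control mouse.

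Lists of keratin, wound and growth genes had medians between -0.68 and 0.29, and single members differed more. Of the 12 basal keratinocyte genes tested none separated the groups, where 3.67% of all tested genes did. Their median log2 fold change was 0.28, which was 0.11 without Control mouse 1 and 0.47 without Control mouse 4. Of 14 suprabasal keratin and desmosome genes 13 were above 0, with a median of 0.29 that was 0.17 without Control mouse 2 and 0.49 without Control mouse 4. Krt1 was the member higher without overlap, against 2.23% of all tested genes. It had 382, 571, 960 and 1278 CPM in Control and 1576, 1349, 2458 and 1711 CPM in EMdKO (log2 fold change 1.15 ± 0.51, edgeR adjusted p = 0.589). The stress keratin and wound genes had a median of -0.68, which was -0.07 without Control mouse 2. In this list 10 of 11 tested genes were below 0, and Mmp13, at -3.87, and Tnc, at -1.98 (log2), overlapped. Plau, the urokinase gene, was lower without overlap, against 1.45% of all tested genes. It had 151 ± 21.7 CPM in Control and 93.6 ± 13.9 CPM in EMdKO (SD, n = 4). EGF receptor ligands had a median of -0.08, which was 0.10 without Control mouse 2. The list ran from Areg, at -0.67, to Epgn, at 1.71 (log2), both with overlap. Cell cycle genes had a median of -0.27, and it was 0.11 without Control mouse 1. None of these genes passed.

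Zc3h12c, whose protein Regnase-3 is a relative of MCPIP1, had 38.8, 36.8, 48.8 and 44.4 CPM in Control and 91.6, 59.1, 80.5 and 103 CPM in EMdKO. Every EMdKO mouse was above every Control mouse, and the log2 fold change was 0.98 ± 0.20 (edgeR adjusted p = 0.211, and 0.0152 without EKO mouse 1). The relatives Zc3h12b and Zc3h12d had -0.14 ± 0.31 and 0.02 ± 0.29. The roquin genes Rc3h1 and Rc3h2 had 0.28 ± 0.14 and 0.00 ± 0.15, and Zfp36, which encodes tristetraprolin, 0.15 ± 0.41. The list of mRNA decay factors had a median of 0.02 over 11 tested members, which was 0.12 without Control mouse 2.

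Of 24 mRNAs that have been reported as MCPIP1 targets in other cells, 16 were tested. Their median log2 fold change was 0.13, and it was 0.67 without Control mouse 2 and -0.05 without Control mouse 1. Apart from Zc3h12a itself, Icos, a costimulator of T cells, separated the groups, with 0.852 ± 0.27 CPM in Control and 2.10 ± 0.228 CPM in EMdKO (SD, n = 4). Of all tested genes 2.23% were higher without overlap. Rel, an NF-kB subunit gene, had 61.8, 49.6, 55.7 and 93.7 CPM in Control and 145, 88.1, 141 and 127 CPM in EMdKO, with overlap in 1 Control mouse (log2 fold change 0.94 ± 0.25; edgeR adjusted p = 0.353). Nfkbiz, which encodes IκBζ, had 288 ± 118 and 501 ± 118 CPM in Control and EMdKO (SD, n = 4). Ccl2 and Ptgs2 had values below 0, -1.04 ± 0.62 and -0.83 ± 0.64, and Cxcl1 had 0.02 ± 0.70. Il17ra, reported as a target as well, had -0.40 ± 0.24. NF-kB subunits and regulators had a median of 0.19 over 17 tested members (0.35 without EMdKO mouse 1). Birc3, an NF-kB-induced inhibitor of apoptosis, was the member higher without overlap, against the same 2.23%. It had 17.7 ± 3.81 CPM in Control and 27.1 ± 2.93 CPM in EMdKO (SD, n = 4).

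Most other macrophage genes had values below 0, while 47.1% of all tested genes were above 0. Of 20 macrophage genes listed 19 were tested and 4 had values above 0, with a median log2 fold change of -0.23 that was -0.10 without Control mouse 3. The summed level of the list was 1137 to 1535 CPM in Control and 833 to 1248 CPM in EMdKO. Adgre1, which encodes F4/80, had 17.2, 20.6, 20.3 and 11.9 CPM in Control and 30.6, 41.7, 39.1 and 23.4 CPM in EMdKO. It was the member higher without overlap, against 2.23% of all tested genes (log2 fold change 0.95 ± 0.25, edgeR adjusted p = 0.339). Lyz2, Lgmn, a lysosomal protease gene, and Folr2, of resident macrophages, were lower without overlap, against 1.45% of all tested genes. Their log2 fold changes were -0.78 ± 0.30, -0.52 ± 0.16 and -0.70 ± 0.27. EMdKO mice carry LysM-Cre in Lyz2, so the level of this gene cannot be read as a macrophage marker alone. Csf1r had -0.12 ± 0.22, Mrc1 -0.32 ± 0.20 and Itgam 0.33 ± 0.29. Of 26 scavenger and pattern receptor genes tested 7 were above 0, with a median of -0.29 that was -0.17 without Control mouse 2. Msr1, another scavenger receptor gene, had 1.45 ± 0.941 CPM in Control and 0.507 ± 0.181 CPM in EMdKO (SD, n = 4). Of 13 Siglec and inhibitory receptor genes tested 3 were above 0, with a median of -0.21, which was 0.01 without Control mouse 2. Siglec1 had a log2 fold change of -0.62 ± 0.27 and Cd33 one of 0.37 ± 0.29. Of the 11 polarisation genes Arg1 had -0.50 ± 0.32 and Nos2 0.73 ± 0.35, and the median was -0.07, which was 0.03 without EMdKO mouse 4.

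Of 26 antigen presentation and interferon-γ response genes tested 24 had values above 0, with a median log2 fold change of 0.45, where 47.1% of all tested genes were above 0. H2-DMb2, a chaperone of MHC class II, had 7.43, 8.63, 15.0 and 18.7 CPM in Control and 23.4, 22.5, 27.8 and 23.4 CPM in EMdKO, without overlap. H2-K1, an MHC class I gene, had 973 ± 251 and 1441 ± 157 CPM in Control and EMdKO (SD, n = 4), also without overlap. Of all tested genes 2.23% were higher without overlap. Cxcl9, a chemokine induced by interferon-γ, had 11.5, 56, 19.7 and 11.2 CPM in Control and 86.3, 82.6, 73.8 and 29.9 CPM in EMdKO, and Control mouse 2 lay above EMdKO mouse 4. Cxcl10, another interferon-induced chemokine, had a log2 fold change of -2.68 ± 1.01, with Control mouse 2 at 559 CPM and the other Control mice at 8.37 to 14.2 CPM. All 9 tested guanylate-binding and related GTPase genes were above 0, with a median of 0.31 that was 0.87 without Control mouse 2, and the groups overlapped in the members besides Gbp2b.

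In the B and plasma cell list 4 of 14 members were tested, with a median of 1.05 that was 0.59 without EMdKO mouse 2. Its summed level was 11.2 to 59.1 CPM in Control and 55.5 to 110.0 CPM in EMdKO. Jchain, a plasma cell gene, had 0.495, 0, 0.374 and 0.75 CPM in Control and 1.99, 3.63, 0.856 and 1.47 CPM in EMdKO. It was higher just without overlap, against 2.23% of all tested genes. Its summed counts of 77 against 14 gave a ratio of 4.6 with a 95% counting interval of 2.58 to 8.8. Cxcl13, a chemokine for B cells, had 31.5 ± 21.6 and 74.8 ± 25.1 CPM in Control and EMdKO (SD, n = 4). Of 19 T and NK cell genes 11 were above 0, with a median of 0.14 that was -0.05 without Control mouse 1. Icos and Cd2 were higher without overlap, against 2.23% of all tested genes. The neutrophil list had 8 of 16 members tested and a median of -0.48, which was 0.29 without Control mouse 2. The summed level of this list was 226.7 to 420.5 CPM in Control and 237 to 317 CPM in EMdKO. Of its defining markers, Cxcr2 and Retnlg reached at most 3.2 and 10.2 CPM in Control and 1.2 and 2.8 CPM in EMdKO, so other members make up most of the sum. Mast cell genes had a median of -0.02 and dendritic and Langerhans cell genes one of -0.07, which were 0.18 and 0.23 without Control mouse 2. No member of either separated the groups, where 3.67% of all tested genes did.

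**Figure D4:**
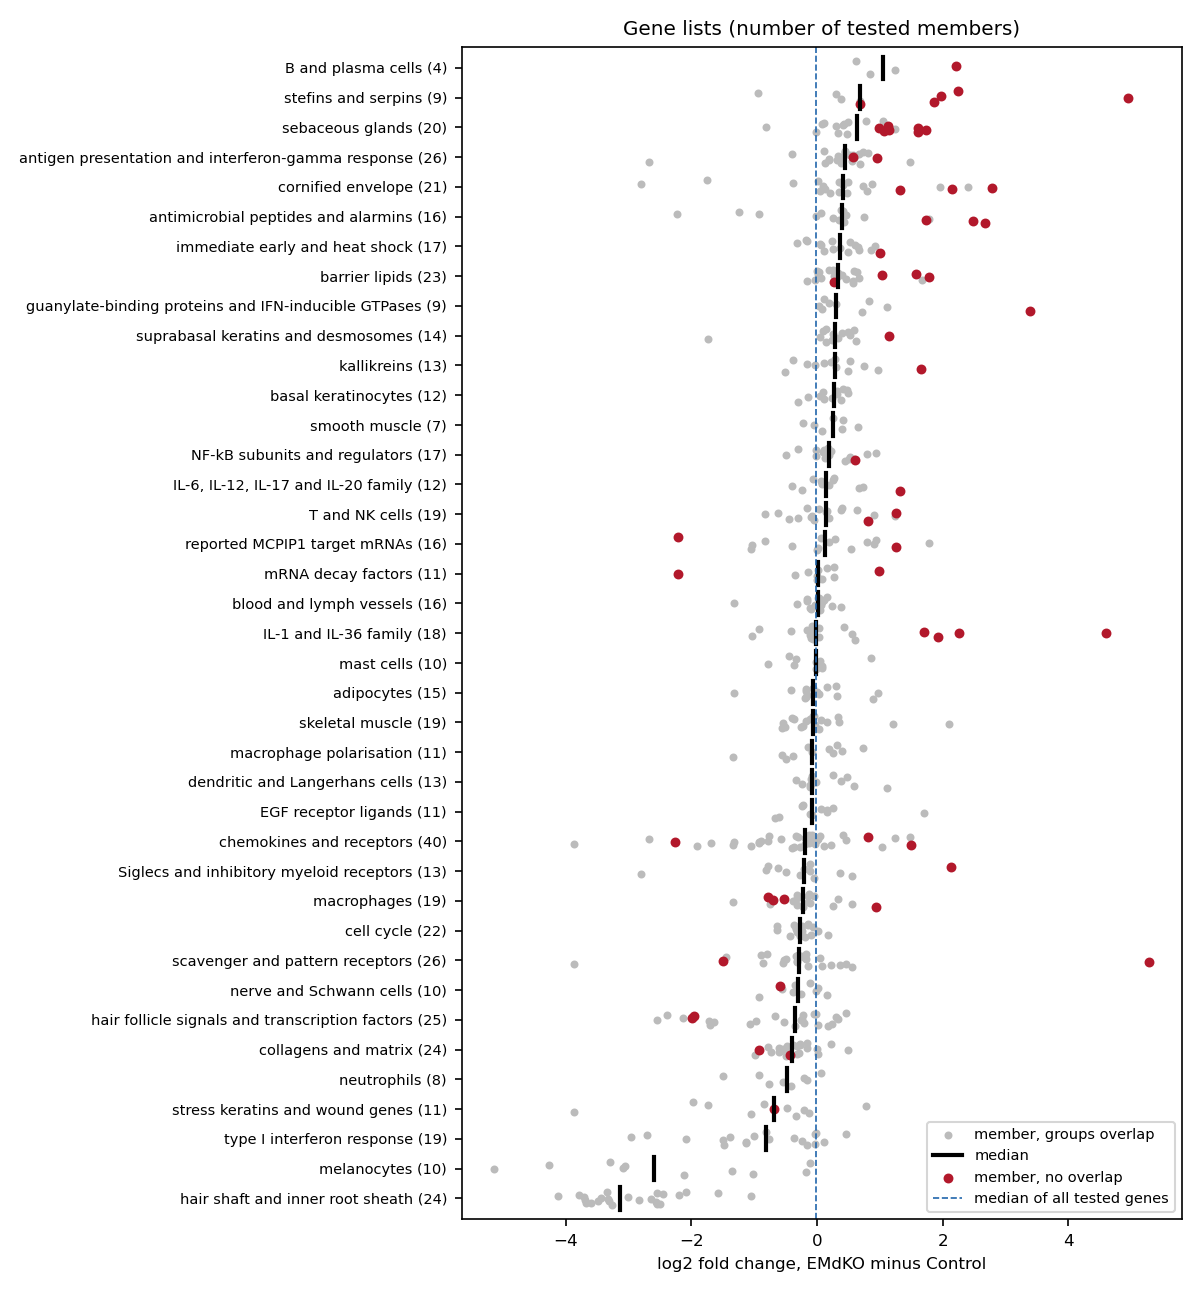
Log2 fold change of EMdKO minus Control on the x axis for the tested members of 39 gene lists, ordered by their medians (black bars). The number after each name is the count of tested members, red points are members whose mice do not overlap, and the dashed line is the median of all tested genes, -0.02. The hair shaft list, with a median of -3.13, holds no red point.

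Some lists with large medians rested on single mice. Each of the 24 tested genes of the hair shaft and its inner sheath had a value below 0, with a median log2 fold change of -3.13. None of them separated the groups, where 3.67% of all tested genes did. The mean log2 CPM of this list was 9.64, 6.72, 4.84 and -1.40 in the Control mice and 0.30, -1.38, 6.87 and -1.31 in the EMdKO mice. Control mice 1, 2 and 3 and EMdKO mouse 3 were high and the rest were at the bottom of the range. The median was -0.72 without Control mouse 1 and -9.58 without EMdKO mouse 3. Krt28, of the inner root sheath, had 1451, 159, 47.1 and 3.25 CPM in Control and 5.39, 5.82, 122 and 3.25 CPM in EMdKO. All 10 melanocyte genes tested were below 0 as well, with a median of -2.59 that was -0.86 without Control mouse 1. The part of the hair and melanocyte levels in the other differences was not tested beyond a fit with the hair score as a covariate, in which Marco, Zc3h12a and Siglece passed and Gbp2b did not. Follicle signals and transcription factors had a median of -0.36, which was -0.66 without Control mouse 3. Msx1, a transcription factor gene, was lower without overlap, against 1.45% of all tested genes. It had 3.62 ± 1.34 CPM in Control and 0.906 ± 0.342 CPM in EMdKO (SD, n = 4), and did not pass.

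Control mouse 2 carried the type I interferon genes. Rsad2, which encodes viperin, had 8.17, 221, 7.66 and 2.87 CPM in Control and 7.13, 9.45, 14.8 and 5.36 CPM in EMdKO. Ccl3, a chemokine gene, had 3.84, 65.0, 4.67 and 0.75 CPM in Control and 0.105 to 1.82 CPM in EMdKO. The interferon list had a median log2 fold change of -0.80 over 19 tested members, which was 0.21 without Control mouse 2. No member separated the groups, where 3.67% of all tested genes did. Chemokines and their receptors had a median of -0.19 over 40 tested members, and it was 0.05 without that mouse. Of this list, Ccl20 and Cxcl16 were higher in EMdKO without overlap, against 2.23% of all tested genes. Ccr1 was lower without overlap, against 1.45% of all tested genes. Immediate early and heat shock genes, which can mark handling of the tissue, had a median of 0.37 over 17 tested members. It was 0.10 without EMdKO mouse 3. Atf3 was the member higher without overlap, against 2.23% of all tested genes, with 22.4 ± 12.6 CPM in Control and 45.0 ± 4.00 CPM in EMdKO (SD, n = 4). The part of handling in the other differences was not tested.

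**Figure D5:**
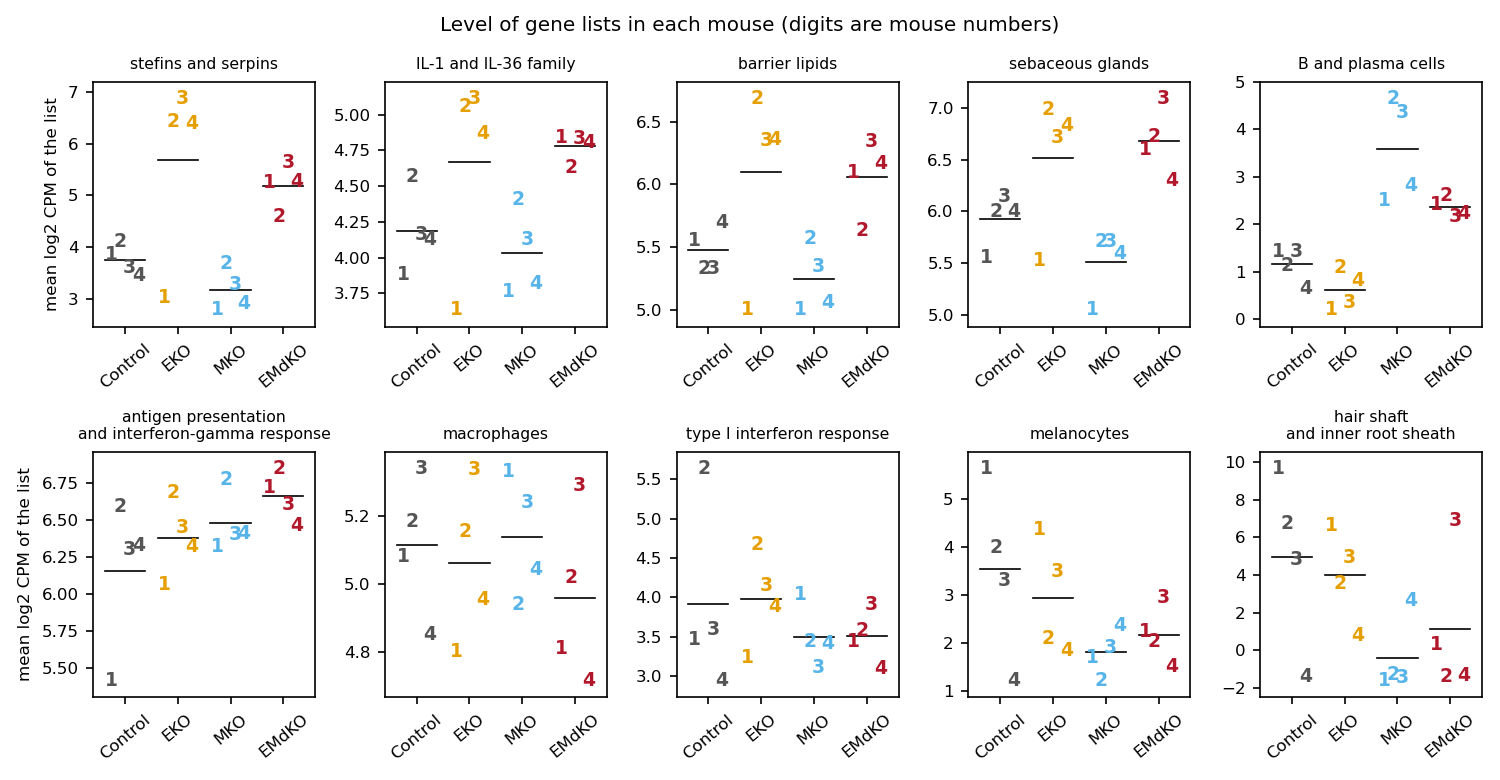
Mean log2 CPM of the tested members of 10 gene lists in each of the 16 mice, with the mouse number as the symbol and a bar at the group mean. The y axes differ between panels. Stefins and serpins, sebaceous genes, B and plasma cell genes and, narrowly, the IL-1 and IL-36 family separate the 4 EMdKO mice from the 4 Control mice. The type I interferon panel shows Control mouse 2 alone at the top, and the hair panel shows EMdKO mouse 3 with Control mice 1, 2 and 3.

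Of 24 collagen and matrix genes tested 20 were below 0, with a median log2 fold change of -0.40 that was -0.23 without Control mouse 3. Col6a3 and Col16a1 were lower without overlap, against 1.45% of all tested genes. Col6a3 had 61.3, 76.7, 106 and 71.5 CPM in Control and 31.2, 53.7, 48.0 and 34.3 CPM in EMdKO, without overlap (log2 fold change -0.92 ± 0.28). Among genes next in order of p, Dbn1, which encodes the actin-binding protein drebrin, had 35.4, 34.0, 35.2 and 27.4 CPM in Control and 12.3, 9.81, 19.3 and 12.5 CPM in EMdKO. Its value of -1.29 ± 0.23 did not pass in the main edgeR fit of all libraries (edgeR adjusted p = 0.102) and passed without EKO mouse 1 (edgeR adjusted p = 0.0251). With all libraries it was called by DESeq2 (DESeq2 adjusted p = 0.000174), limma-voom (limma-voom adjusted p = 0.0404) and edgeR with the replicate block (edgeR adjusted p = 0.0214). It was not called with the hair or muscle score. Procr, the protein C receptor, had 97.2, 70.3, 40.8 and 25.0 CPM in Control and 13.6, 16.5, 20.6 and 13.4 CPM in EMdKO. It passed without EKO mouse 1 (edgeR adjusted p = 0.0355) and with DESeq2 (DESeq2 adjusted p = 0.00125). Pla1a, a phosphatidylserine phospholipase, had 32.3 ± 11.6 and 10.4 ± 1.56 CPM in Control and EMdKO (SD, n = 4), and Islr a log2 fold change of -1.06 ± 0.22. Pla1a and Islr were lower without overlap and did not pass in edgeR with all libraries or without EKO mouse 1. DESeq2 called both (DESeq2 adjusted p = 0.000915 for Pla1a and 0.0035 for Islr). Vessel, adipocyte and skeletal muscle lists had medians of 0.02, -0.06 and -0.07, and without any 1 of the 8 mice they stayed between -0.30 and 0.10. Nerve and Schwann cell genes had a median of -0.30, which was -0.04 without Control mouse 3. Smooth muscle genes had one of 0.25, which was 0.03 without Control mouse 1 and 0.63 without Control mouse 2.

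Whether loss in both cell types differed from loss in one was tested directly in the same model. All these comparisons share libraries, so their values are set side by side and not correlated. Marco was 5.96 ± 0.55 log2 units higher in EMdKO than in EKO (edgeR adjusted p = 9.85e-05) and Siglece 2.33 ± 0.31 (edgeR adjusted p = 0.00806). These were the 2 genes called against EKO, 0.0147% of those tested, and Marco alone was called without EKO mouse 1 (0.00727%), where Siglece was at 2.24 ± 0.35 (edgeR adjusted p = 0.0664). Against MKO neither differed past the threshold: Marco had 5.25 ± 2.30 CPM in MKO and 7.55 ± 2.58 in EMdKO, and Siglece 8.16 ± 3.09 and 8.35 ± 2.33 CPM (SD, n = 4). Gbp2b had 4.39 ± 2.24 CPM in MKO, 3.21 ± 1.59 in EMdKO and 0.496 ± 0.215 in EKO (SD, n = 4), and its difference from EKO of 2.67 ± 0.49 did not pass (edgeR adjusted p = 0.257).

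Against MKO, Zc3h12a alone was called with all libraries (0.00734%). EKO mouse 1 enters this comparison through the shared spread, the TMM scaling and the choice of tested genes. It was singled out by its Il1f6 level, so the fit without it is no independent support here. In that fit 95 genes were called (0.691%), 88 higher and 7 lower in EMdKO, and 30 of them were also called against Control. They included 4 of 18 IL-1 and IL-36 genes tested, 7 of 20 sebaceous, 4 of 23 barrier lipid, 4 of 21 cornified envelope and 4 of 9 stefin and serpin genes. Il1f6 was 5.21 ± 0.29 log2 units higher than in MKO (edgeR adjusted p = 1.45e-07), Klk12 3.41 ± 0.31 (edgeR adjusted p = 9.52e-05), Elovl3, a fatty acid elongase, 2.93 ± 0.42 (edgeR adjusted p = 0.00301) and Lipk 1.82 ± 0.23 (edgeR adjusted p = 0.00184). With all libraries Il1f6 had an edgeR adjusted p of 0.0814 for the same difference. Mrgprg, a receptor of the Mas-related family, was among the 7 lower genes, by -2.76 ± 0.59 (edgeR adjusted p = 0.0419), and was named after its value was seen.

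Against EKO no epidermal gene was called. Il1f6 had 62.9 ± 42.1 CPM in EKO and 41.1 ± 12.3 in EMdKO, and Lipk 108 ± 65.0 and 94.8 ± 15.8 CPM (SD, n = 4). Without EKO mouse 1 the EKO levels were 83.7 ± 7.48 CPM for Il1f6 and 139 ± 25.4 CPM for Lipk (SD, n = 3). EMdKO then lay at -1.03 ± 0.24 and -0.55 ± 0.24 log2 units relative to EKO (edgeR adjusted p = 0.307 and 0.632). Stfa3 had 606 ± 418 CPM in EKO against 135 ± 61.1 in EMdKO (SD, n = 4), a difference of -2.16 ± 0.82 that did not pass (edgeR adjusted p = 0.703), with EKO mouse 1 at 12.4 CPM. Without that mouse EKO had 804 ± 164 CPM (SD, n = 3) and the difference was -2.57 ± 0.55 (edgeR adjusted p = 0.21). The median over the stefin and serpin list against Control was 2.43 in EKO (2.80 without EKO mouse 1), 0.69 in EMdKO and -0.49 in MKO. The B and plasma cell list had medians of -0.53 in EKO (-0.27 without EKO mouse 1, with 5 members tested), 1.05 in EMdKO and 2.61 in MKO. Jchain had 12.8 ± 13.2 CPM in MKO and 1.99 ± 1.19 in EMdKO (SD, n = 4), a difference of -2.70 ± 0.75 that did not pass (edgeR adjusted p = 0.243). The interaction, which asks whether the effects of both deletions add up on the log2 scale, called 0 of 13633 genes in edgeR, with 465 at an unadjusted p under 0.05 and 3 called by DESeq2.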

How the data were processed

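RNA from snap-frozen whole skin was made into libraries with the Ion AmpliSeq Transcriptome Mouse Gene Expression Kit, per the labels' protocols, which amplifies 1 short stretch per transcript. The deposited files hold raw read counts for 23930 targets named by RefSeq accession, and the submitters' processing notes name HTSeq 0.6.0 and DESeq2 1.18.1. No source used here gives the aligner, the genome build or how reads with several matches were treated. The 5 summary lines of each file, 3.11 to 5.25% of its reads, were left out. Symbols came from RefSeq tables of GRCm38.p6 for 22452 targets and from GENCODE for 110. The remaining 1368 held at most 0.308% of counts.

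Depth was 6962474 to 12086327 counts per library. Counts were tested with edgeR 4.0.16 (R 4.3.3; quasi-likelihood, TMM, filterByExpr, 4 group means, all 16 libraries, 12 residual degrees of freedom, biological coefficient of variation 0.31), and BH adjusted p under 0.05 was a call. The SE is the absolute log2 fold change divided by the square root of F. List scores are means of log2 CPM with a prior count of 2. No libraries were copies of each other (smallest chi-square per degree of freedom 14.4). Counting intervals are exact, from summed counts, and cover counting error only.

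The 40 gene lists (721 of 792 entries matched) and all comparisons were chosen with earlier results of these data known. Named were Zc3h12a, Krt14, Lyz2, called genes and the next in p up to 24, and the 4 members of each list with the smallest p; further genes were named after their values were seen. The red blood cell list, with 2 tested members, gave Slc4a1 and Alas2 at -1.25 and 0.49 (log2). Alternatives were DESeq2 1.42.0, limma-voom (limma 3.58.1) with quality weights, EMdKO and Control alone, other scaling and filters, the mouse number as a block, hair and muscle scores as covariates, and each library left out. Scripts were tested on simulated data. Tables and figures used python 3.11.15, pandas 2.3.3 and matplotlib 3.10.9. Some genes are not reported here.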

Additional observations from a re-analysis of the deposited data

Results flagged for a closer look

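In 10 of 132 groups of 4 mice checked, 1 mouse lay so far from the other 3 that the gap exceeded Dixon's 95% critical value. Chance flags about 1 in 20 groups. Zc3h12a itself was lower in EMdKO mouse 4, at 4.41 CPM, than in the other EMdKO mice, at 5.47 to 5.71 CPM. Il1f8 was lower in Control mouse 4, at 5.5 CPM, than in the others, at 6.82 to 7.06 CPM. Apol7a, an apolipoprotein L gene, stood at 13.4 CPM in EMdKO mouse 2 and at 25.4 to 27.8 CPM in the others. Dbn1 stood at 27.4 CPM in Control mouse 4, with the other Control mice at 33.9 to 35.4 CPM. Islr reached 51.3 CPM in Control mouse 3 and 35.1 to 37 CPM in the others. Adamtsl1, a matrix gene, stood at 38.8 CPM in Control mouse 1 and at 53.6 to 56.4 CPM in the others.

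Of the list scores, in mean log2 CPM, suprabasal keratins and desmosomes were higher in Control mouse 4, at 9.39, than in the other Control mice, at 8.69 to 8.8. Skeletal muscle was lower in Control mouse 1, at 9.74 against 10.5 to 10.6, and the cell cycle score was higher in that mouse, at 4.7 against 3.43 to 3.65. Mast cell genes were higher in EMdKO mouse 3, at 3.87, than in the other EMdKO mice, at 3.28 to 3.38.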

How the results depend on the processing

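Calls higher and lower in EMdKO against Control were 3 and 1. Both counts were the same under other scaling and with no or a stricter filter. They were 9 and 1 with EMdKO and Control alone, 40 and 33 with DESeq2, 3 and 5 with limma-voom, 2 and 1 with the hair score and 4 and 1 with the muscle score. Leaving out 1 library gave 1 to 36 higher and 1 to 4 lower, and in fits of EMdKO and Control alone, added after the data were seen, 2 to 10 higher and 1 lower. The most, 36 and 4, came without EKO mouse 1. Against EKO the count of 2 was 9 with DESeq2 and 1 to 3 without 1 library. Against MKO the count of 1 was 9 with no filter, 2 with the hair score, 6 with the muscle score, 8 with limma-voom, 147 with DESeq2 and 1 to 95 without 1 library. The interaction had 3 calls with DESeq2 and 0 without any 1 library. The cause of these shifts was not tested. Mouse numbers were taken from the sample titles. The deposited files number the EMdKO and MKO mice differently, and pairing by those numbers was not run. The title numbers did not pair the samples (correlations of same-numbered mice -0.216, -0.163, -0.234 and 0.574), and with the replicate block 2 genes were higher and 2 lower.

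Some genes that were not called changed sign. With the replicate block the log2 fold change of Csf3r was 0.00606. With the hair score Lef1 was 0.067, Slc4a1 0.792, the log2 fold change of Myot -0.0602, Csf3r 0.108 and S100a8 0.462. With limma-voom the log2 fold change of St14 was 0.0749, Flt4 -0.174, Csf3r 0.459 and S100a8 1.32. Leaving out 1 library gave ranges that crossed 0 for St14 (-0.575 to 0.137) and Slc4a1 (-2.90 to 0.961), positive without Control mouse 1. The ranges of Rsad2 (-3.10 to 0.554), Csf3r (-0.742 to 0.909) and S100a8 (-1.33 to 0.531) were positive without Control mouse 2, and that of Btc (-0.879 to 0.0553) without Control mouse 4. In fits of EMdKO and Control alone the same omissions gave St14 0.135, Slc4a1 0.956, Rsad2 0.557, Csf3r 0.909, S100a8 0.522 and for the log2 fold change of Btc 0.0528. Low counts limit Marco, Gbp2b and Serpinb3a, whose Control libraries held at most 4 counts.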
